A study of Homo sapiens with 2 samples.

Results

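The mitochondrial ribosomal proteins are described here in BE(2)C, an established human neuroblastoma cell line, after MYCN was targeted with small interfering RNA (siRNA). Members were the genes whose platform symbol is MRPL or MRPS followed by digits, with an optional letter, so that pseudogenes and hyphenated symbols were left out. This gave 73 genes out of 14812 with a symbol, read by 82 of 46255 probe sets. By symbol, 48 belong to the large subunit (MRPL) and 25 to the small subunit (MRPS). A further 4 genes with such symbols, MRPL12, MRPS6, MRPS18C and MRPS24, were not analysed here.

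The study set 1 culture given MYCN siRNA (an siRNA from Qiagen named MYCN2) against 1 culture given a non-targeting control siRNA from another supplier, Dharmacon. Both were grown in medium with serum and transfected with Lipofectamine. RNA was isolated 36 hours later, and 100 ng of each was labelled and hybridised to an Affymetrix Human Gene ST array, which reads each transcript with a set of short probes. Untransfected cells, a second siRNA and the level of MYCN were not analysed here, and how far MYCN was lost is therefore not stated. A single array stood for each condition, so nothing below was tested and no p-values appear; the precision is limited by that number of arrays.

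Mitochondria keep their own ribosome, which translates the few messages of mitochondrial DNA, all of them for subunits of the respiratory chain and ATP synthase. Its RNA comes from mitochondrial DNA, but each of its proteins is encoded in the nucleus, made in the cytosol and imported. Some of these proteins descend from the bacterial ribosome, and others were added in mitochondria. MYC proteins are known as activators of genes for ribosomes and for mitochondria, and MYCN is amplified in this cell line.

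Values are log2 RMA values as deposited, averaged over the probe sets of a gene, and each difference is MYCN siRNA minus control siRNA on that log2 scale. A gene counted as measured when it reached the median of all probe sets (4.55 in the MYCN siRNA array, 4.60 in the control array) in at least 1 array. All 73 members were measured, and so were 10592 genes in all. Across all probe sets the 2 columns had a Pearson correlation of 0.986. In 380 measured protein-coding genes read by several probe sets, the differences varied between probe sets with an SD of 0.31. This SD does not hold the spread between cultures or any array effect common to a whole gene. Whether both columns came from 1 RMA run is not stated, and the title of the control sample marks it as a reanalysis. A shift between the columns would enter every difference, and median centring was therefore tried. Such centring removes only a shift common to all probe sets, and no effect particular to a probe set. RMA equalises arrays run together, and equal amounts of RNA were labelled, so a change in total RNA per cell does not show. In bulk RNA, fewer cells of a type and less RNA per cell cannot be told apart.

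Markers of sympathetic neuroblastoma were present in both arrays. Of 15 listed, 12 were measured, and their summed linear level was 11295 in the MYCN siRNA array and 9756 in the control array. They were not all level: 8 were higher and 4 lower, from ISL1, a transcription factor of sympathetic neurons (−0.43), to DBH, the enzyme that makes noradrenaline (1.45). DBH was at 10.8 in the MYCN siRNA array and 9.32 in the control array, and NCAM1, an adhesion molecule, differed by 0.48. Of the markers of other cell types, DCN, CD14 and EPCAM were below the array medians in both, and the sums given next include them. The others with a symbol were measured and went both ways. The differences were −1.17 for LUM and 0.10 for THY1 (fibroblast), and −0.28 for SOX10, 0 for ERBB3 and 1.02 for S100B (Schwann cell). CSF1R was at −0.38 and CD68 at 1.735 (haematopoietic), KDR at −0.65 and VWF at 0.02 (endothelial) and KRT8 at −0.06 (epithelial). Summed in the same way, the 3 haematopoietic markers with a symbol reached 548 in the MYCN siRNA array and 195 in the control array. CD68, a lysosomal protein that is abundant in macrophages, gave most of this, at 9.0 in the MYCN siRNA array and 7.27 in the control array. The summed level was 212 against 247 for 3 fibroblast markers, 219 against 170 for 3 Schwann cell markers, 41.7 against 50.3 for 2 endothelial markers and 48.5 against 51.2 for 2 epithelial markers. The part of these markers in the differences below was not tested.

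Mitochondrial ribosomal protein genes were slightly lower as a group in the MYCN siRNA array, and none was much higher. Of the 73 members, 49 (67.1%) were lower and 24 were higher, while 48% of all measured genes were lower and 50.9% were higher. Their median difference was −0.12, a 1.09-fold lower level, beside 0.01 for all measured genes. After median centring these medians were −0.075 for the members and 0.06 for all measured genes. The members spanned −0.69 to 0.22, and the middle 50% of them lay between −0.28 and 0.06.

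The members lacked large positive differences. No member was higher in the MYCN siRNA array by 0.32 or more, a linear ratio of about 5 to 4, against 21.1% of all measured genes. On the lower side, 12 members (16.4%) were lower by at least 0.32, a share close to the 17.6% of all measured genes. The 2 members at least 1.5-fold lower, MRPL42 and MRPS2, compare with 5.79% of all measured genes, and median centring left 1. No member was 1.5-fold higher, against 8.81% of all measured genes, and no member passed 2-fold in either direction, against 1.16% of all measured genes that were 2-fold lower and 2.21% that were 2-fold higher. The differences of members had an SD of 0.22, against 0.43 over all measured genes. Of the 73 differences, 61 were smaller than the SD of 0.31 between probe sets of a gene, and the other 12 were all on the lower side.

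**Figure D1:**
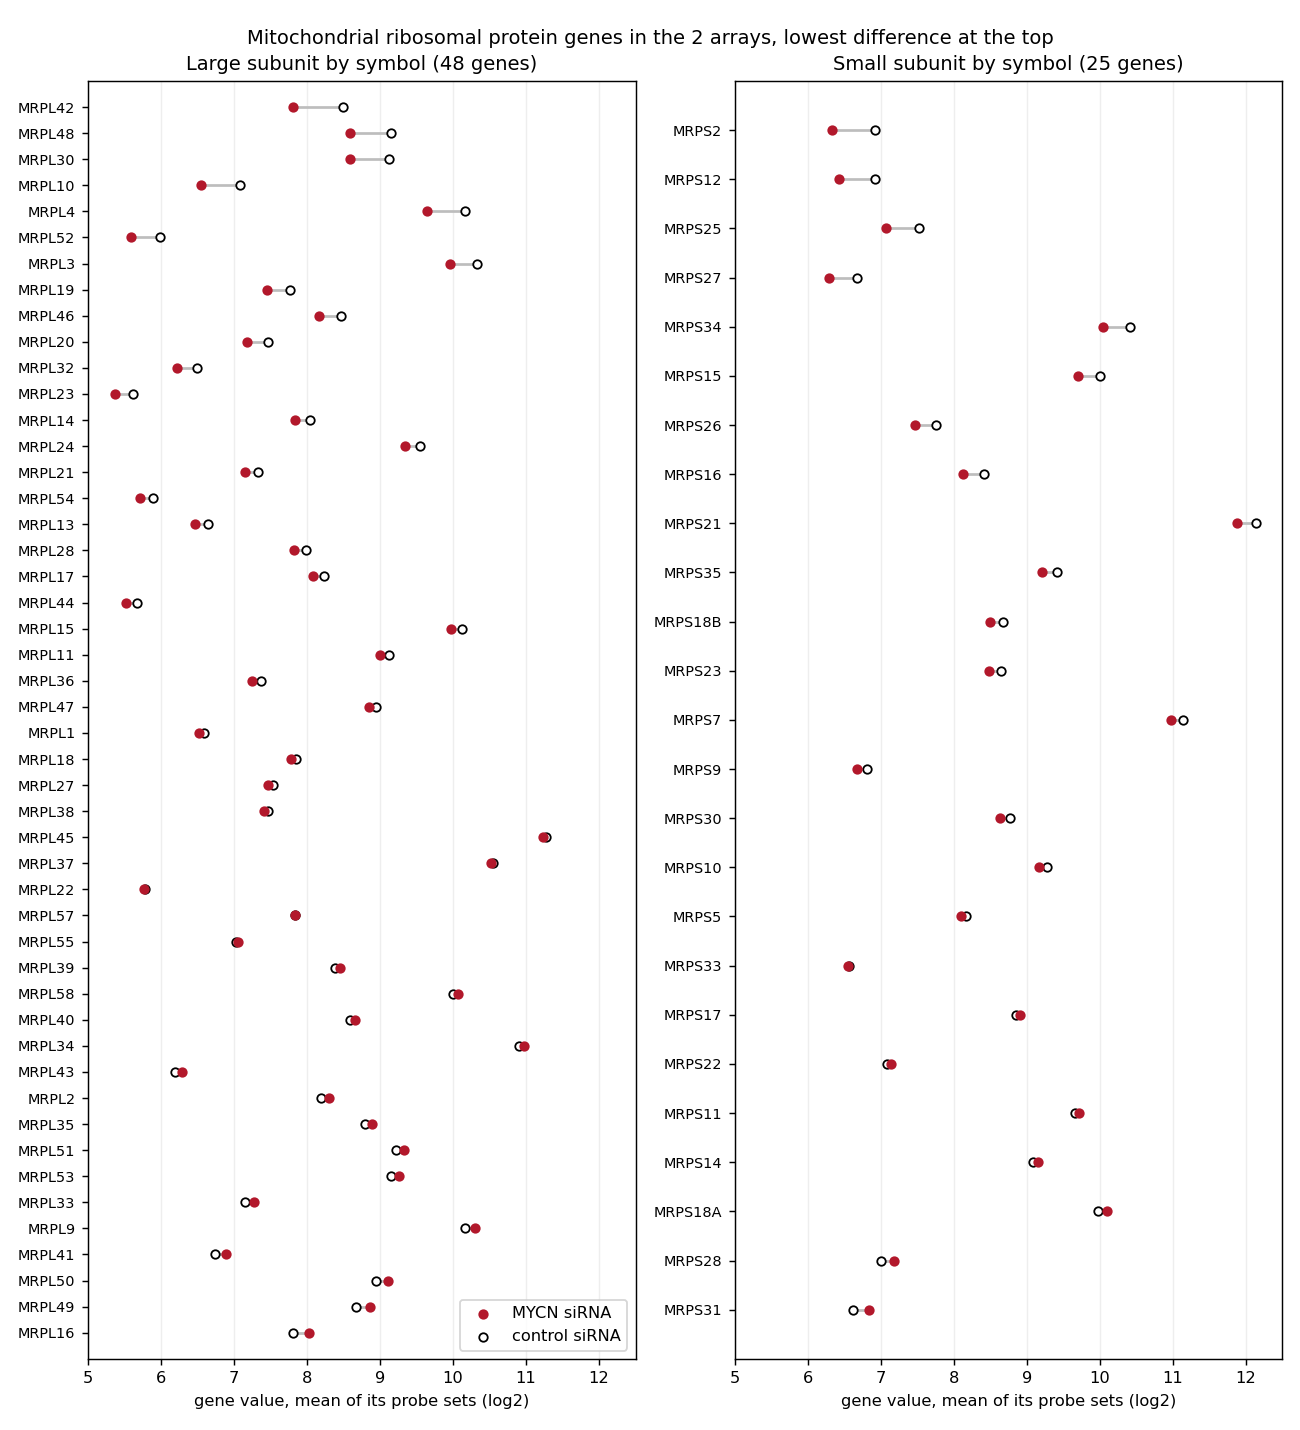
Each row is a gene, with its log2 value in the MYCN siRNA array (filled red) and in the control array (open black), large subunit on the left and small subunit on the right, sorted by difference. The upper rows, led by MRPL42 and MRPS2, have the red point to the left, and in the lowest rows, down to MRPL16 and MRPS31, the red point lies slightly to the right.

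In the large subunit, 31 of 48 members were lower in the MYCN siRNA array, against 48% of all measured genes. The median difference of the 48 was −0.08, with a middle 50% from −0.22 to 0.08. After median centring this median was −0.026, while that of all measured genes moved from 0.01 to 0.06. Lower by at least 0.32 were 7 members (14.6% of the 48), against 17.6% of all measured genes. MRPL42 had the largest difference, at 7.80 in the MYCN siRNA array and 8.49 in the control array (−0.69, 1.61-fold lower). Its systematic name has the prefix m, given to proteins not named after a bacterial counterpart. MRPL48, which also has this prefix, was at 8.59 in the MYCN siRNA array and 9.15 in the control array (−0.57, 1.48-fold lower). It lies just outside the 1.5-fold threshold, and MRPS2, at 1.51-fold lower, just inside.

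Several homologues of bacterial core proteins were next in order. MRPL30 was at 8.59 in the MYCN siRNA array and 9.12 in the control array (−0.53). MRPL10, which anchors the stalk to which translation factors bind, was at 6.55 in the MYCN siRNA array and 7.07 in the control array (−0.53). MRPL4, whose bacterial homologue lines the exit tunnel of the growing protein, was at 9.64 in the MYCN siRNA array and 10.2 in the control array (−0.53). These differences are alike in size although the gene values lie far apart. MRPL3, whose bacterial homologue reaches towards the site of peptide bond formation, was at 9.96 in the MYCN siRNA array and 10.3 in the control array (−0.37). MRPL19 was at 7.46 in the MYCN siRNA array and 7.77 in the control array (−0.31). MRPL52, which has the prefix m and a low signal, was at 5.59 in the MYCN siRNA array and 5.99 in the control array (−0.40).

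At the other end of the large subunit stood 17 members that were higher. MRPL16, a homologue of a bacterial core protein, was highest at 8.02 in the MYCN siRNA array and 7.80 in the control array (0.22, 1.16-fold higher). MRPL49, MRPL50 and MRPL41, all with the prefix m, followed with differences of 0.19, 0.16 and 0.15, and MRPL9, of bacterial descent, with 0.13. Each of these 5 lies inside the probe set SD of 0.31. MRPL45, which sits at the tunnel exit and tethers the ribosome to the inner membrane, was the brightest large-subunit gene, at 11.2 in the MYCN siRNA array and 11.3 in the control array (−0.03). Its sign turned under 3 other scalings of the arrays, with values of 0.01 to 0.03. MRPL23, the dimmest, was at 5.37 in the MYCN siRNA array and 5.61 in the control array (−0.24).

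In the small subunit, 18 of 25 members were lower, against 48% of all measured genes. The median of the 25 was −0.15, with a middle 50% from −0.29 to 0.05. After median centring this median was −0.105, while that of all measured genes moved from 0.01 to 0.06. Lower by at least 0.32 were 5 members (20% of the 25), against 17.6% of all measured genes. MRPS2 was lowest, at 6.33 in the MYCN siRNA array and 6.92 in the control array (−0.59, 1.51-fold lower). MRPS12, a homologue of the bacterial protein at the decoding site where streptomycin acts, was at 6.43 in the MYCN siRNA array and 6.91 in the control array (−0.48). MRPS25, with the prefix m, was at 7.07 in the MYCN siRNA array and 7.53 in the control array (−0.45). All 3 had signals below the median of the members. MRPS27, a pentatricopeptide repeat protein and the dimmest small-subunit gene, was at 6.29 in the MYCN siRNA array and 6.68 in the control array (−0.39). MRPS34 was at 10.0 in the MYCN siRNA array and 10.4 in the control array (−0.38).

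MRPS15, whose bacterial homologue binds the small-subunit RNA early in assembly, was at 9.70 in the MYCN siRNA array and 10.0 in the control array (−0.30). MRPS26 followed at −0.29 and MRPS16 at −0.28. MRPS21, the brightest small-subunit gene, was at 11.9 in the MYCN siRNA array and 12.1 in the control array (−0.27). At the upper end, MRPS31 was at 6.83 in the MYCN siRNA array and 6.61 in the control array (0.22), the highest difference of all 73 members. It was followed by MRPS28 at 0.18, MRPS18A at 0.12, MRPS14 at 0.06 and MRPS11 at 0.06.

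The medians of the large and the small subunit differed by 0.08 (large minus small), both as deposited and after median centring. With 1 array a group this difference has no error. The 2 sets of differences overlapped over nearly their whole ranges, −0.69 to 0.22 in the large subunit and −0.59 to 0.22 in the small. The symbols do not always give the place in the ribosome. In the published structure of the human mitochondrial ribosome, MRPS18A and MRPS30 lie in the large subunit. With both moved there, 32 of 50 large-subunit members were lower (median −0.08), as were 17 of 23 small-subunit members (median −0.18). The share among all measured genes was 48%.

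**Figure D2:**
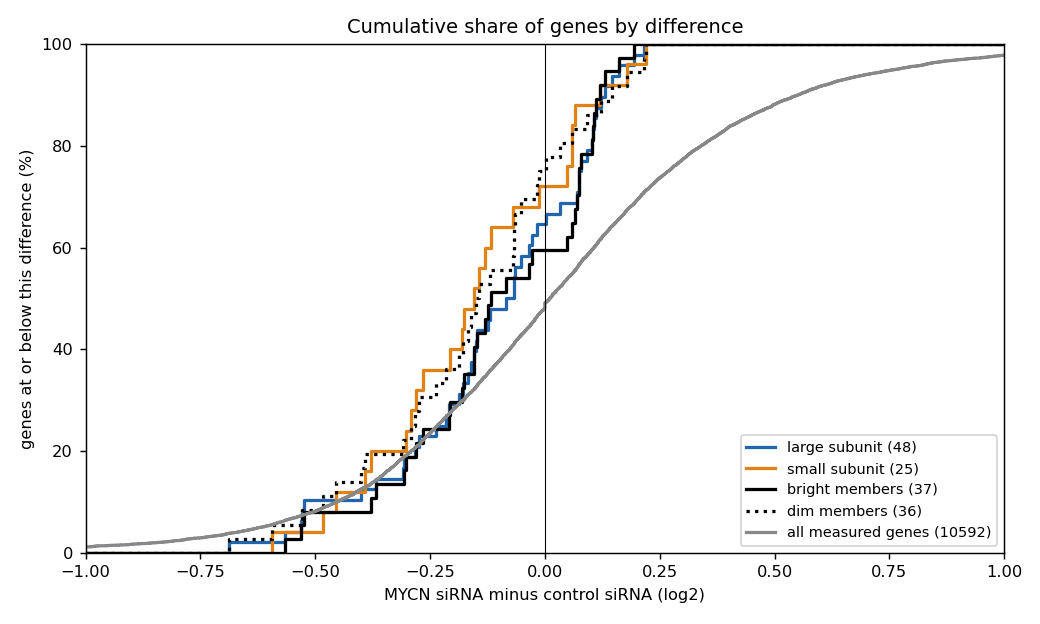
The curves give the share of genes (vertical axis, %) at or below each difference (horizontal axis, log2, MYCN siRNA minus control siRNA, drawn between −1 and 1) for the 48 large-subunit, 25 small-subunit, 37 bright and 36 dim members and for all 10592 measured genes. The curves of the 4 member groups run close together, meet the curve of all genes at its lower end and reach 100% by 0.22, where the curve of all genes is still far from the top.

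Members were also split by their systematic names, which give proteins at the place of a bacterial counterpart the prefix u or b and all others the prefix m. Of the 29 large-subunit proteins named after a bacterial counterpart, 22 were lower (median −0.15). Of the 21 with a mitochondrial name, 10 were lower and 11 were higher (median 0.00), and MRPL42 and MRPL48, the lowest large-subunit members, are among them. In the small subunit, 9 of 13 members named after a bacterial counterpart (median −0.14) and 8 of 10 with a mitochondrial name (median −0.19) were lower. Among all measured genes 48% were lower. Subunits are those of the structure here. A mitochondrial name does not exclude bacterial ancestry, since MRPS18A and MRPS18B, relatives of a bacterial protein, carry one. Over both subunits the medians differed by −0.11 (bacterial counterpart minus mitochondrial name), for which the 2 arrays give no error. The shares lower by at least 0.32 had the other order. They were 14.3% with a bacterial counterpart and 19.4% with a mitochondrial name, against 17.6% of all measured genes.

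Fewer of the bright than of the dim members were lower, while their medians lay close together as deposited and further apart after quantile normalization. The level of a probe set depends on its probes as well as on the transcript, so this split is by signal and does not rank transcripts. Of the 37 members at or above the members' median signal of 8.15, 22 were lower (median −0.12), and of the 36 dimmer members 27 were lower (median −0.15). After median centring these medians were −0.067 for the bright and −0.097 for the dim members, beside 0.06 for all measured genes. The medians differed by 0.03 (bright minus dim), and by 0.11 after quantile normalization. At least 0.32 lower were 5 bright members, against 17.9% of all measured genes in the bright range, and 7 dim members, against 16.5% in the dim range. No member of either kind was higher by that much, against 18.3% of all measured genes in the bright range and 25.2% in the dim range. Among all measured genes in these ranges of signal, 47% were lower in the bright range (median 0.02) and 44.3% in the dim range (median 0.05). The SD was 0.21 over bright members against 0.40 over all measured genes in that range, and 0.23 over dim members against 0.45.

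Most members had more signal than the typical gene, since 58 of 73 reached 6.75, the median signal over measured genes. In the brightest 24 members, from 8.88 to 12.0, 14 were lower (median −0.06). In the dimmest 24, from 5.49 to 7.31, 17 were lower (median −0.15). Of all measured genes, at any signal, 48% were lower. Of the members lower by at least 0.32, 3 were in the brightest 24 and 6 in the dimmest 24, beside 17.6% of all measured genes. Across the 73 members the difference and the mean signal correlated at Spearman's rho = 0.11 (Pearson r = 0.10), beside a rho of 0.05 across all measured genes. These points share the same 2 arrays and genes are not independent replicates. Split by both, the large subunit had 12 of 23 bright members lower (median −0.03) and 19 of 25 dim members lower (median −0.15). The small subunit had 10 of 14 bright members lower (median −0.17) and 8 of 11 dim members lower (median −0.14). All measured genes were lower in 47% of cases in the bright range and 44.3% in the dim range.

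**Figure D3:**
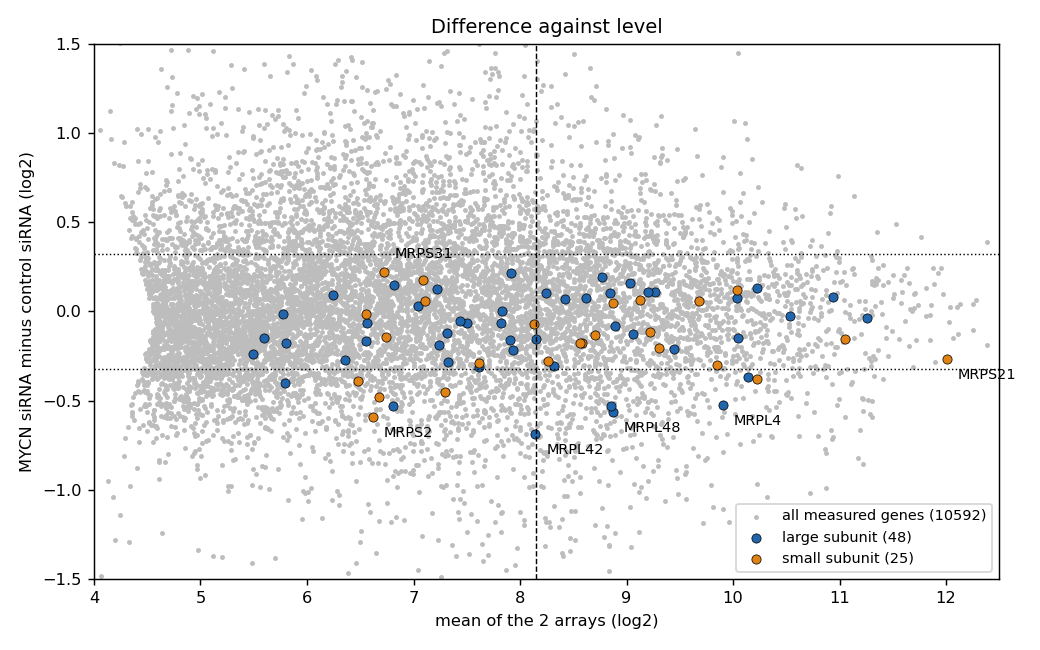
Each point is a gene, with the mean log2 value of the 2 arrays on the horizontal axis and the difference, MYCN siRNA minus control siRNA (log2), on the vertical axis; blue points are large-subunit, orange points small-subunit and grey points all measured genes, of which 48 lie outside the axes. Dotted lines mark differences of 0.32 either way and the dashed line the members' median signal of 8.15; no coloured point lies above the upper dotted line, and 12 lie below the lower.

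Probe sets of the same gene were compared for the 4 members that had several. MRPS2 was lower in both of its probe sets, by −0.41 and −0.77. MRPS16 had 1 bright probe set at 9.80 in both arrays (0.01) and 1 dimmer probe set at 6.45 in the MYCN siRNA array and 7.02 in the control array (−0.57). Its mean of −0.28 therefore rests on the dimmer probe set. MRPL44, a protein with a ribonuclease III fold, had 1 probe set at 9.43 in the MYCN siRNA array and 9.56 in the control array (−0.13) and another near the bottom of the scale, at 1.62 and 1.79 in these arrays (−0.17). Averaging put MRPL44 among the dim members, although its brighter probe set would place it among the bright ones.

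The MRPS18 proteins are related to 1 bacterial ribosomal protein and occupy different sites in the mitochondrial ribosome. MRPS18B was at 8.49 in the MYCN siRNA array and 8.67 in the control array (−0.18), with identical values in all 7 of its probe sets. MRPS18A was at 10.1 in the MYCN siRNA array and 9.98 in the control array (0.12). MRPS30, the other S-named protein of the large subunit, was at 8.64 in the MYCN siRNA array and 8.77 in the control array (−0.13). Pseudogenes can share signal with their parents. The pseudogene MRPL42P5 was far below the array medians, at 2.36 in the MYCN siRNA array and 2.33 in the control array. MRPL45P2 was at 6.63 in the MYCN siRNA array and 6.71 in the control array (−0.07), and whether it shares signal with MRPL45 was not tested.

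Promoters were read because MYCN and its partner MAX bind the E-box CACGTG, and because ETS factors (GABPA among them) and NRF1 are known regulators of nuclear genes for mitochondria. RefSeq windows of 300 bases (GRCh38.p14, from 250 before to 50 after a start site) were at hand for 65 of the 73 members. A gene counted when any of its windows held the motif. The E-box was found in 12.3% of these 65 genes, against 12.4% of 7679 measured protein-coding genes. By window, it was in 9.88% of 81 member windows and 7.26% of all 35116 windows. The ETS core CCGGAAG, on either strand, was found in 44.6% of member genes, against 20.8% of measured protein-coding genes. By window, these shares were 39.5% of member windows and 10.3% of all windows. The NRF1 core GCATGCG, on either strand, was found in 9.23% of member genes, against 7.38% of measured protein-coding genes. By window, it was in 7.41% of member windows and 3.91% of all windows. A match is a description of the letters and shows no binding. Overlaps between motifs were not removed.

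**Figure D4:**
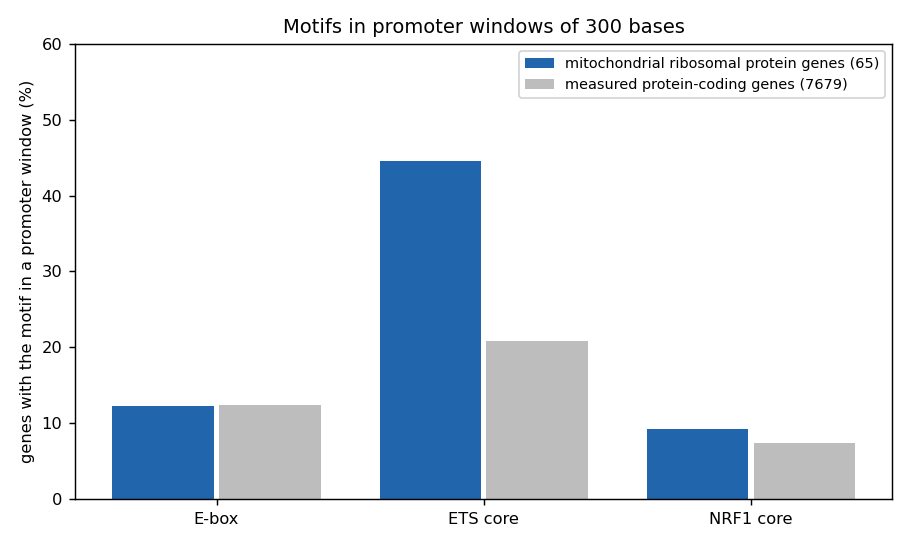
Bars give the share of genes (%) with each motif in at least 1 of their promoter windows of 300 bases, for 65 mitochondrial ribosomal protein genes (blue) and 7679 measured protein-coding genes (grey). The ETS core bar is higher for members (44.6%) than for measured genes (20.8%), and the E-box bars are nearly level (12.3% and 12.4%).

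Members with an E-box ranged from −0.59 (MRPS2) to 0.19 (MRPL49). Of the 8 members with CACGTG, 7 were lower in the MYCN siRNA array (median of all 8 −0.03), beside 37 of 57 members without it (median −0.13). Of these 7, MRPL45 (−0.03), MRPL37 (−0.03), MRPL22 (−0.02) and MRPS33 (−0.01) were only slightly lower. MRPL45 stood at 0.015 after median centring, so the count of 7 depends on the scaling. Over measured protein-coding genes the medians were −0.03 with and 0.04 without the E-box, and 47% of all measured protein-coding genes were lower. Of the 29 members with the ETS core, 19 were lower (median −0.08), beside 25 of 36 without it (median −0.13). All 6 members with the NRF1 core, MRPL17, MRPL22, MRPL32, MRPL52, MRPS15 and MRPS18B, were lower (median −0.23), MRPL22 only slightly (−0.02). Of 59 members without it, 38 were lower (median −0.08), while measured protein-coding genes with this core had a median of 0.06.

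The windows of the 3 lowest members with an E-box, MRPS2 (−0.59), MRPL14 (−0.22) and MRPL36 (−0.12), are shown with that of MRPL42 (−0.69), the lowest member of all, which holds none of the 3 motifs. They read 5′ to 3′ on the strand of the gene, with the motif in capitals.
MRPS2, chr9:135499715-135500014, plus strand: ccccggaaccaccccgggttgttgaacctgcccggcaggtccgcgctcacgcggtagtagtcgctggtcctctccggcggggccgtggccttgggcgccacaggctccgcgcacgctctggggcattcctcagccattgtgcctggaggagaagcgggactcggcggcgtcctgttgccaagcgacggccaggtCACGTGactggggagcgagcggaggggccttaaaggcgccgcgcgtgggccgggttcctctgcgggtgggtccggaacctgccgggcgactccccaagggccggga
MRPL14, chr6:44126218-44126517, minus strand: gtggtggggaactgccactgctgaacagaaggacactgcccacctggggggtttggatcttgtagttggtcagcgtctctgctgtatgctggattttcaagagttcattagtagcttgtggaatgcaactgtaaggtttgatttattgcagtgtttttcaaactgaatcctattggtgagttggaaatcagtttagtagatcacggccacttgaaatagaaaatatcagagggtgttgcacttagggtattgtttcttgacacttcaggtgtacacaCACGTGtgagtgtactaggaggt
MRPL36, chr5:1799788-1800087, minus strand: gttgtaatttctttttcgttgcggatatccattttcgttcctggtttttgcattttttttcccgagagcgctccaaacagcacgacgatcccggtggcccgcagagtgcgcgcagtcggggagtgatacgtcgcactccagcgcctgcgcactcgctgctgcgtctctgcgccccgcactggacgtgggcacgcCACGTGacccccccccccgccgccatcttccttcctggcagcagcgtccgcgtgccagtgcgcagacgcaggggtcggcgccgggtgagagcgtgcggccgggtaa
MRPL42, chr12:93467264-93467563, plus strand: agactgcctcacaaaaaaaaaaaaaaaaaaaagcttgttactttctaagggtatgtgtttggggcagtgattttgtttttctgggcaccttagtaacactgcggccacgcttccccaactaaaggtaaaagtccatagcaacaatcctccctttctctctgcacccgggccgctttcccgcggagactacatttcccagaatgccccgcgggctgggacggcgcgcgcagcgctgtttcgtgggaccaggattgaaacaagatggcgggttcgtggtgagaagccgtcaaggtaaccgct
In MRPS2 and in MRPL36 the E-box begins 56 bases before the start site. The MRPL14 window belongs to 1 of 3 annotated start sites of that gene, and its E-box begins 27 bases after that start. The MRPS2 window belongs to 1 of 2 annotated start sites.

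Also shown are MRPL48 (−0.57), the lowest member with the ETS core, and MRPL52 (−0.40), the 1 member with both the ETS and the NRF1 core. Both were added after the values were seen, to show the ETS core, the most frequent of the motifs in members. In MRPL52 the less frequent NRF1 core is shown as well. Capitals mark the ETS core, which reads CTTCCGG on the strand shown in both, and in MRPL52 also the upstream NRF1 core.
MRPL48, chr11:73787624-73787923, plus strand: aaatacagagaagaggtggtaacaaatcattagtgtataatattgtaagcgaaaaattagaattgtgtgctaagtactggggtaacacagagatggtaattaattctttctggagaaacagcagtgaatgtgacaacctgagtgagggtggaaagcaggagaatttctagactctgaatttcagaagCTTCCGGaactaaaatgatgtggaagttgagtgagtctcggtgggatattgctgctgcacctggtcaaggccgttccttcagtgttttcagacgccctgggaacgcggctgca
MRPL52, chr14:22829637-22829936, plus strand: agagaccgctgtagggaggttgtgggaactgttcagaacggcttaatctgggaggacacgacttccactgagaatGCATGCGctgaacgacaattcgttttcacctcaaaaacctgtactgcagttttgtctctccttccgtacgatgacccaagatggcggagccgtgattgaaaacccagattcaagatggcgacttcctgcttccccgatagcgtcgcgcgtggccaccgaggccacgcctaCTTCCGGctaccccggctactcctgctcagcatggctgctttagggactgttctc
The ETS core begins 63 bases before the start site in MRPL48 and 5 bases before it in MRPL52, where the NRF1 core begins 175 bases before the start.

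Some members stand back to back with another gene. Of the 65 members with a window, 24 (36.9%) had a gene on the opposite strand whose start site lay within 1000 bases and pointed away, a search added after the values were seen. By the same search 26.4% of 7679 measured protein-coding genes had one. In 10 of the pairs the neighbour was a measured protein-coding gene. Both genes were lower in 3 pairs and both higher in 2, and in 5 the signs were opposite; the neighbours' median difference was −0.03. The pairs in which both were lower are MRPS27 (−0.39) with PTCD2 (−0.25), MRPL27 (−0.06) with EME1 (−0.14) and MRPL37 (−0.03) with CYB5RL (−0.33). MRPL46 (−0.31) and MRPS11 (0.06), a large- and a small-subunit gene, are such a pair, with start sites 320 bases apart. Next to MRPS2 (−0.59), PIERCE1, a protein inside the microtubules of cilia, was at 0.50. Next to MRPL14 (−0.22), TMEM63B, a membrane channel, was at 0.65. Next to MRPL50 (0.16), ZNF189, a zinc finger gene, was at 1.13, which is 7.18 in the MYCN siRNA array and 6.05 in the control array. FAU, which encodes a cytosolic ribosomal protein, was at −0.19 beside MRPL49 at 0.19, with start sites 49 bases apart.

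Other genes of mitochondrial translation were set beside the members. The 3 mitoribosomal proteins under other symbols lay within the range of the members, with PTCD3 at −0.19, DAP3 at −0.07 and CHCHD1 at 0.11. Factors that assemble the mitochondrial ribosome or modify its RNA had a lower median. Of 25 listed, 22 had a named probe set here and were measured. Of these 22, 20 (90.9%) were lower (median −0.28), 8 (36.4%) were lower by at least 0.32 and 2 were at least 2-fold lower. Over all measured genes these shares were 48%, 17.6% and 1.16%. MRM1, which methylates the RNA of the mitochondrial large subunit, was at 7.0 in the MYCN siRNA array and 8.59 in the control array (−1.59, 3.00-fold lower). MPV17L2, an inner membrane protein needed for ribosome assembly, was at 8.11 in the MYCN siRNA array and 9.31 in the control array (−1.20, 2.29-fold lower). The third lowest, MTERF3, was at −0.55, below all but 3 of the 73 members, and the highest were METTL15 at 0.08 and MTERF4 at 0.15.

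Of 17 genes listed as mitochondrial translation factors, 12 had a named probe set here and were measured. TUFM, TSFM, GFM1, GFM2 and PDF had none, so the list stands for a part of these factors. The 12 went both ways, 6 lower and 6 higher (median 0.01), beside 48% lower over all measured genes. Lower by at least 0.32 were 4 (33.3%) and higher by that much 1 (8.33%), against 17.6% and 21.1% of all measured genes. The list also takes in OXA1L and LRPPRC, which act beside translation itself. OXA1L, which inserts the new proteins into the inner membrane, was at 9.36 in the MYCN siRNA array and 10.5 in the control array (−1.11, 2.16-fold lower). GUF1, an elongation factor homologue, was at −0.56 and LRPPRC, which stabilises mitochondrial messages, at −0.51, while MTRES1 was at 0.29 and MTFMT, the formylase of the initiator tRNA, at 0.43. Of 12 listed genes of mitochondrial DNA transcription and replication, 4 had a named probe set here and were measured. They were TWNK, the replicative helicase (−1.12, 2.18-fold lower), POLRMT, the RNA polymerase (−0.35), MTERF1 (−0.11) and PRIMPOL (0.77). Only 2 of 20 genes listed for charging mitochondrial tRNA had a named probe set here, and both were measured, QRSL1 at −0.27 and GATB at 0.08. Of 8 listed nuclear regulators of mitochondrial genes, 3 had a named probe set here and all 3 were measured, NRF1 at −0.21, YY1 at −0.01 and ESRRA at 0.01.

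**Figure D5:**
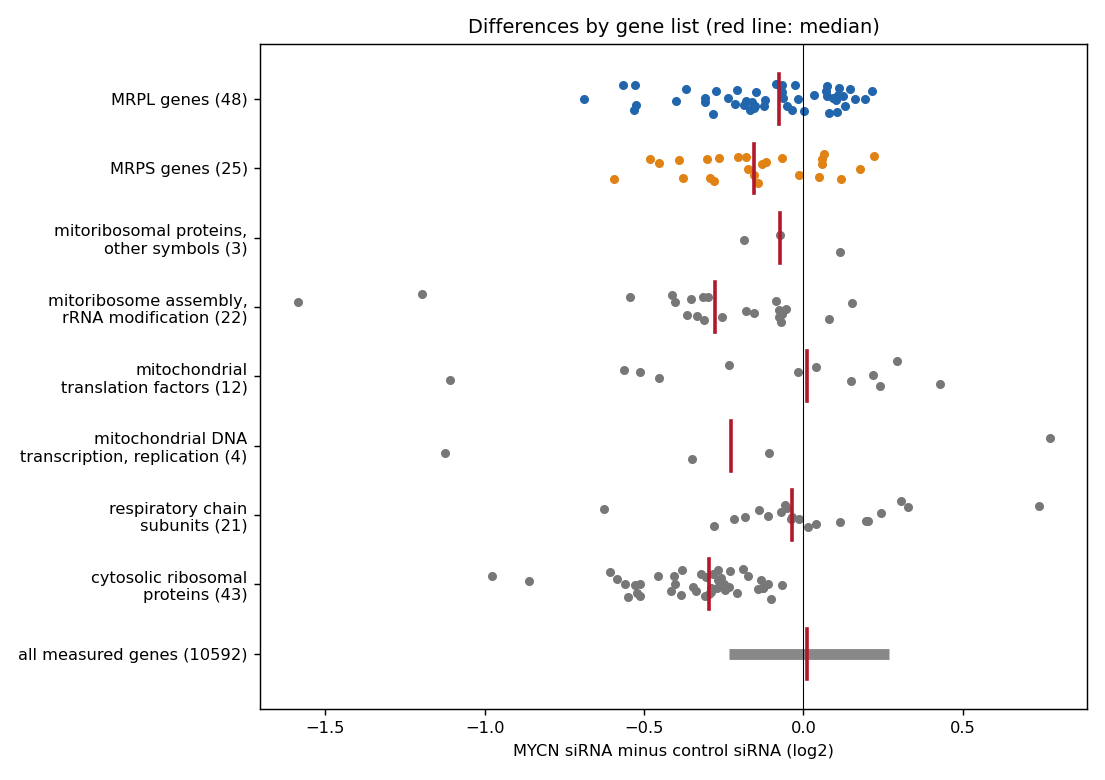
Each point is a measured gene, placed by its difference, MYCN siRNA minus control siRNA (log2); rows are gene lists with their size, red lines are medians, and the grey bar spans the middle 50% of all measured genes. MRPL and MRPS genes lie between −0.69 and 0.22, assembly factors reach down to −1.59, and all 43 cytosolic ribosomal proteins shown lie below 0.

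Of 77 listed cytosolic ribosomal proteins, 43 had a named probe set here. All 43 were measured and below 0, with a median of −0.30, and 18 of them (41.9%) were lower by at least 0.32. Over all measured genes 48% were below 0 and 17.6% were lower by at least 0.32. The lowest of the 43 were RPS14 (−0.98), RPL32 (−0.86) and RPL6 (−0.61), and the highest RPL30 (−0.10) and RPS15A (−0.07). RPL32 had a low signal, at 4.77 in the MYCN siRNA array and 5.63 in the control array. Of 83 listed respiratory chain subunits encoded in the nucleus, 23 had a named probe set here, none of them of complex I, so the list stands for a part of the chain. Of the 21 measured, 12 were lower (median −0.04). COX4I2 (−0.63), CYC1 (−0.28) and UQCRC2 (−0.22) were lowest and COX8A (0.33) and COX6A1 (0.74) highest. COX4I2 also had a low signal, at 4.63 in the MYCN siRNA array, near that array's median, and 5.26 in the control array. The 2 arrays give no error for these medians, and no difference between lists was tested.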

How the data were processed

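RNA of 2 BE(2)C cultures, 1 given MYCN siRNA and 1 given control siRNA, was measured on 1 array each. Each deposited value is the log2 signal of a probe set after RMA, a method the submitters' processing notes name; its software, settings and genome build are not stated here. Values lie between 0.85 and 13.5, with column medians of 4.55 (MYCN siRNA) and 4.60 (control siRNA), and were not normalized again. Whether both arrays shared 1 RMA run is not stated. Differences are relative to the other transcripts.

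Symbols came from the platform annotation, which named 15835 rows, and all 14812 gene identifiers matched the RefSeq table of GRCh38.p14. Probe sets of a gene were averaged, and genes reaching the array median in at least 1 array were kept. Counts, medians and SDs are descriptions; thresholds were 0.32 on the log2 scale, 1.5-fold and 2-fold. Members, gene lists and named genes were chosen with earlier results of these data known. Named members are the 8 lowest and 5 highest of each subunit, the brightest and dimmest, those with several probe sets, and the MRPS18 family with MRPS30; of other lists, the 3 lowest and 2 highest. Genes next to members, and the MRPL48 and MRPL52 windows, were chosen after their values were seen. Scripts ran in Python 3.11.15 with pandas 2.3.3, scipy 1.17.1 and statsmodels 0.14.6 and were tested on simulated data.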

Additional observations from a re-analysis of the deposited data

How the results depend on the processing

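Each group has 1 array, so no array could be left out, and no paired analysis was possible because the groups share no pair of replicates. A median was taken as moved when it shifted by more than the probe set SD divided by the square root of the number of members. For a difference of 2 medians the limit used both numbers of members. The limit is a convention, since members share the same 2 arrays and are not independent replicates. Median centring shifts every gene alike, so being counted as moved under it depended on group size. The limit was 0.045 for the large subunit, which counted as moved, and 0.063 for the small, which did not. Median centring raised the median of all measured genes to 0.06. The median of all members was then −0.075, with −0.026 for the large and −0.105 for the small subunit. Bright and dim members then had medians of −0.067 and −0.097, and 1 member was at least 1.5-fold lower. That count was also 1 when each gene was read by its brightest probe set and 1 with an offset of 16, and it was 0 at a 2-fold threshold and 12 at a threshold of 0.32 on the log2 scale. The bright minus dim difference was 0.11 after quantile normalization, and the median of the bright members was −0.060 when the brightest 24 were taken. MRPL45 was at 0.015 after median centring, 0.033 after quantile normalization and 0.0090 after loess, and MRPS16 was at 0.0059 with its brighter probe set. The other 156 of 160 values of the 32 named members kept their sign and moved by less than the probe set SD of 0.31. Lower members numbered 45 to 50 of 73 (61.6% to 68.5%) over the scalings, the offset and the brightest probe set, while 42.9% to 48.5% of all measured genes were lower. No member was 1.5-fold higher under any of these. Leaving out MRPS36 was planned but not run, since no row carried that symbol. Using only members with 1 probe set (median −0.12) or members at or above the median level of measured genes (median −0.10) was added after seeing the data.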

Other observations

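In 1859 of the 46255 probe sets (4.02%) the deposited value was the same in both arrays to the last digit, as it was for 123 of the 10592 measured genes and for none of the 73 members.

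The antisense genes MRPL23-AS1 and MRPL20-AS1, which the symbol rule leaves out, were at −0.44 and 0.26, beside MRPL23 at −0.24 and MRPL20 at −0.28.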
